A study of Mus musculus with 6 samples.

Results

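Cytokine signaling through STAT5 and STAT3 was examined in the inguinal fat pad of the mouse (iWAT, a white depot beneath the skin) by means of 10 of its genes. The genes were the feedback targets Cish, Pim1, Socs2 and Socs3, the target and repressor Bcl6, the transcription factors Stat3, Stat5a and Stat5b, and the receptors Ghr and Lepr. They were chosen by name, after lower levels of Cish and Pim1 had been seen in these same samples, in order to ask whether other targets or the receptors for growth hormone, prolactin and leptin share that pattern. The levels of Cish and Pim1 are therefore a description and carry no test. All 10 genes were among the 16538 genes of the deposited RNA-Seq table, and all 10 were among the 13855 genes that were compared between genotypes, whose mean level reached 10 normalized counts or more.

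The control group had 3 samples and the AKO group had 3 samples. AKO mice lacked Nrg4, a hormone gene of brown and beige fat, in adipocytes because Adiponectin-Cre had recombined a floxed allele, and Nrg4 of other cell types was not targeted. Control mice are labelled wt, and the study's text describes them as floxed (fl/fl) littermates. Both groups were fed chow. The labels give a cold period of 10 days at 8°C. A slightly longer period is described in the study's text. Each sample held RNA pooled from 2 mice, so the spread between samples is a spread between pools. Age and sex of these mice were not given in the sources used here.

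Many hormones and cytokines signal through receptors that carry Janus kinases. A receptor that has bound its ligand lets the kinase phosphorylate STAT proteins, which pair, enter the nucleus and bind short palindromic DNA elements near their target genes. Growth hormone and prolactin act mainly through STAT5A and STAT5B, leptin and the interleukin 6 family mainly through STAT3. Among the genes that activated STATs induce are those for CISH and the SOCS proteins, which bind the receptor or the kinase and dampen the signal, so that the transcripts of these genes are often read as a record of recent signaling. In fat, growth hormone signaling is known for its effects on lipolysis, and STAT5 for its part in adipocyte differentiation.

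The usual STAT element is the palindrome TTCNNNGAA, where N is any base. It was searched for in the 300 bases around the annotated transcription starts of RefSeq on GRCm38.p6, from 250 bases before to 50 bases after each start. The palindrome reads the same on both strands, and it contains TTCCNGGAA as a special case. Of 32851 such windows in the mouse genome, 8.30% held TTCNNNGAA and 1.15% held TTCCNGGAA. Windows were given for 9 of the 10 genes, and those of Cish, Socs3 and Bcl6 held the palindrome. The stretches around all matches in these windows are shown, whatever the levels of the genes. The AKO mean was below the control mean for Cish and above it for Bcl6. The samples of the groups overlapped for Bcl6 and for Socs3. The first of the following lines is on the plus strand and the others are on the minus strand, each is 30 bases long, and capitals mark the palindrome.
Cish, chr9:107296654-107296683: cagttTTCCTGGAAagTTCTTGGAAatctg
Socs3, chr11:117969502-117969531: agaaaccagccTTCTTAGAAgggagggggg
Bcl6, upstream start, chr16:23988952-23988981: tagcaaattagTTCTCAGAAttccagaggc
Bcl6, downstream start, chr16:23981433-23981462: caggccgcggcTTCCTGGAAagttacttct
Bcl6, downstream start, chr16:23981387-23981416: gggcaggagtgTTCTGTGAAatccttagag
Bcl6, downstream start, chr16:23981353-23981382: gatcgactacgTTCCGGGAAtgagagggct

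The matches of Cish began at positions 1 and 12, counting the RefSeq start base as 1, in a stretch that the GENCODE M21 annotation counts as untranslated exon. Only 0.457% of the windows held 2 or more matches, as the window of Cish and that of the downstream start of Bcl6 did. The single match of Socs3 began 154 bases before the start, and no annotated exon covered the stretches shown for Socs3 or Bcl6. No palindrome was present in the windows of Pim1, Stat3, Stat5a, Stat5b, Ghr or Lepr. A match in these letters is not a measured binding site.

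Cish, the gene for a SOCS family protein that is induced by STAT5 and dampens its activation, lies on the plus strand of chromosome 9 of GRCm38 from 107296026 to 107302784. Cish stood at 753, 441 and 1094 normalized counts in control and at 192, 204 and 211 in AKO. Every AKO sample was thus below every control sample, and the 3 AKO samples lay close together while the highest control was 2.48 times the lowest. Mean Cish was 762 ± 327 in control against 202 ± 9.64 in AKO (SD, n = 3 each), 3.77-fold higher in control. The SD of the AKO samples was smaller than the counting error of 14.0 at this depth and understates the error. On the log2 scale the difference, AKO minus control, was -1.81 with a standard error of 0.28, rank 6 from the lowest of the 13855 genes compared. In bulk tissue, fewer cells that express a gene cannot be told apart from less RNA in each of them.

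Pim1, a serine/threonine kinase gene that STAT5 and STAT3 induce, lies on chromosome 17 from 29490753 to 29496112. Its normalized counts were 596, 959 and 622 in control and 459, 565 and 430 in AKO. The highest AKO sample was just below the lowest control sample, and the controls were spread out by replicate 2. The means were 726 ± 203 (SD, n = 3) and 485 ± 71.2 (SD, n = 3), a difference of -33.2% of the control mean. The log2 fold change of Pim1 was -0.56 with a standard error of 0.19, rank 156 from the lowest. Without control replicate 2 it was -0.34, and without control replicate 1 it was -0.68. Groups that do not overlap with AKO lower were found for 8.31% of all genes compared, and this background is given beside Cish and Pim1 without a reading, since their pattern is the reason for the choice.

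**Figure D1:**
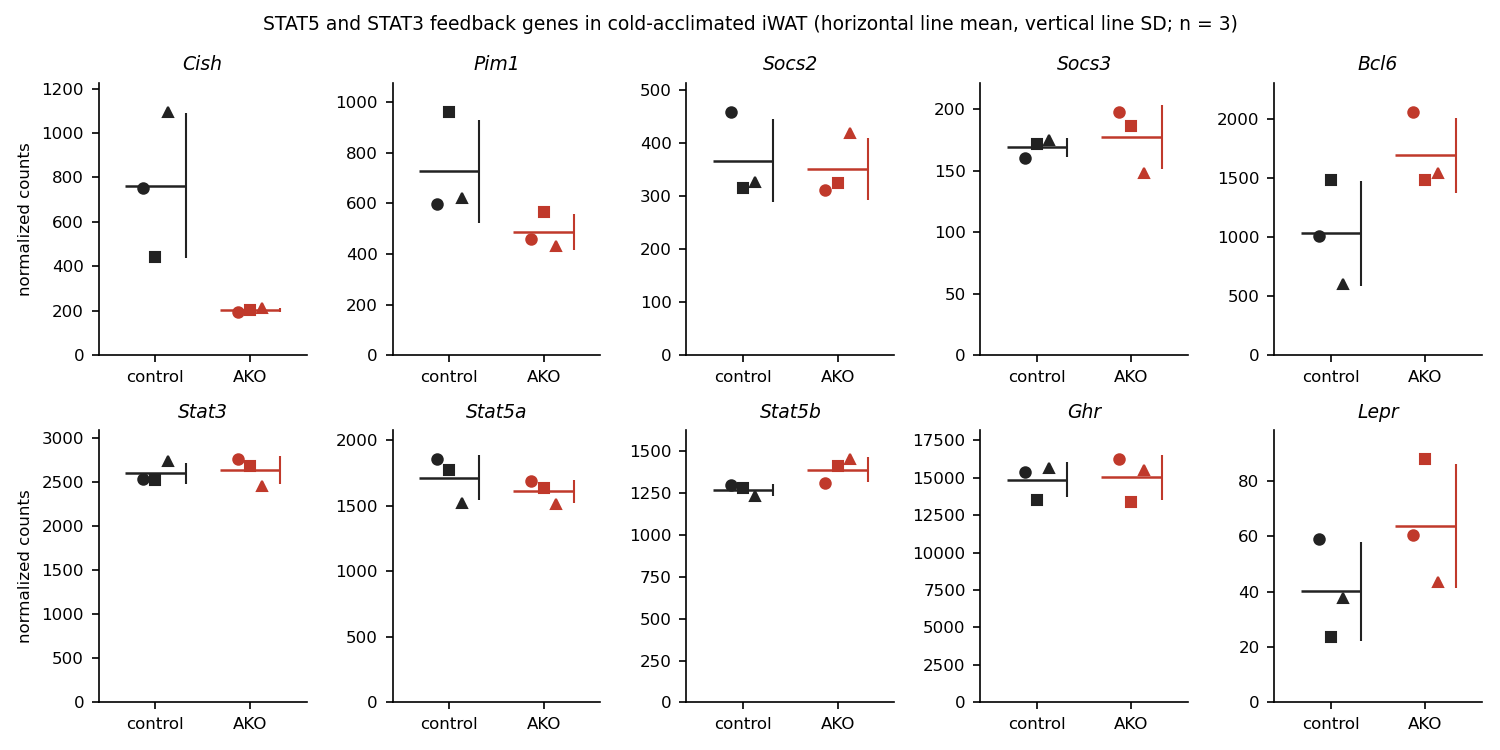
Normalized counts of the 10 genes (vertical axes, each from 0) in the control and AKO samples, with circles, squares and triangles for replicates 1, 2 and 3, a horizontal line for the mean and a vertical line for the SD (n = 3). The AKO samples of Cish lie between 192 and 211, below all control samples, whereas the groups of Socs2, Socs3, Stat3, Stat5a and Ghr overlap.

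The other feedback genes did not share this pattern. Socs2, which limits growth hormone signaling and is itself a STAT5 target, lies on chromosome 10 from 95385362 to 95417180. Socs2 stood at 459, 316 and 327 normalized counts in control and at 311, 324 and 419 in AKO. The groups overlapped, and the mean was 367 ± 79.2 in control and 352 ± 59.1 in AKO (SD, n = 3 each). On the log2 scale Socs2 differed by -0.06 with a standard error of 0.17 and a 95% interval from -0.45 to 0.34, and the gene was not called (adjusted p = 0.956 from limma).

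Socs3, the principal brake on leptin and interleukin 6 signaling and a STAT3 target, lies on chromosome 11 from 117966079 to 117970047. Its control samples had 161, 172 and 175 normalized counts, and its AKO samples had 198, 186 and 148. The AKO samples lay on both sides of the controls. For Socs3 the difference was 0.06 on the log2 scale, with a standard error of 0.13, a 95% interval from -0.24 to 0.36 and an adjusted p of 0.932 from limma.

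Because both genes are read in the same sample, the ratio of Cish to Socs2 does not depend on how the samples were scaled. For each read of Socs2 there were 1.64, 1.40 and 3.34 reads of Cish in control, and 0.617, 0.630 and 0.503 in AKO. Cish was thus the more abundant of the pair in reads in every control sample and the less abundant in every AKO sample. For Cish against Socs3 the ratios were 4.69, 2.56 and 6.26 in control and 0.971, 1.09 and 1.42 in AKO.

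Bcl6, a transcriptional repressor whose gene is held down by activated STAT5 in several cell types, lies on chromosome 16 from 23965052 to 23988852. In control, Bcl6 was at 1012, 1485 and 599.8 normalized counts, and in AKO it was at 2061, 1482 and 1542. The groups met at a single pair of samples, control replicate 2 and AKO replicate 2, and with total reads in place of the authors' size factors they no longer overlapped. That scaling also raised the median log2 fold change of all genes compared from 0.0070 to 0.0657. The share of all genes with groups apart under that scaling was not computed. The means were 1032 ± 443 (SD, n = 3) and 1695 ± 318 (SD, n = 3), 1.64-fold higher in AKO. Bcl6 differed by 0.79 on the log2 scale, with a standard error of 0.29 and a 95% interval, before any adjustment, from 0.11 to 1.48. It was not called after adjustment over all genes (adjusted p = 0.506 from limma), and 9.10% of all genes had a p under 0.05 before adjustment. Without control replicate 3 the log2 fold change of Bcl6 was 0.45, and without control replicate 2 it was 1.10.

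Within the control group, Cish and Bcl6 stood in opposite order. Control replicate 3 had the most Cish and the least Bcl6, and control replicate 2 had the least Cish and the most Bcl6. For each read of Cish there were 1.34, 3.37 and 0.548 reads of Bcl6 in control and 10.7, 7.26 and 7.30 in AKO. Pim1, like Bcl6, was highest in control replicate 2, the control with the least Cish. The 2 genes chosen for their lower levels were therefore lower in AKO together but did not vary together among the controls, which was not tested.

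**Figure D2:**
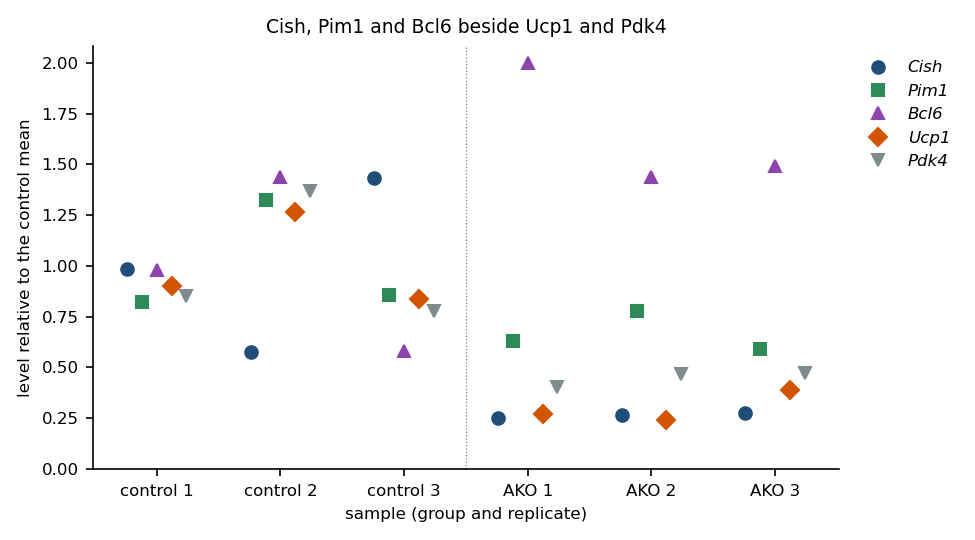
Levels of Cish, Pim1, Bcl6, Ucp1 and Pdk4 in each sample (horizontal axis), divided by the mean of the 3 control samples of the same gene (vertical axis, from 0). In control replicate 2, Pim1, Bcl6, Ucp1 and Pdk4 are at 1.26 to 1.44 of their control mean while Cish is at 0.578.

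The STAT genes lie side by side on chromosome 11, with Stat5b from 100780731 to 100850724, Stat5a from 100859351 to 100885169 and Stat3 from 100885098 to 100939540. Stat5a had 1854, 1771 and 1521 normalized counts in control and 1686, 1636 and 1513 in AKO. The groups overlapped, and the log2 fold change of -0.09 (standard error 0.09, 95% interval from -0.29 to 0.12) was not called (adjusted p = 0.829 from limma). Stat5b had 1302, 1279 and 1233 normalized counts in control and 1309, 1413 and 1452 in AKO. Every AKO sample of Stat5b was above every control sample, the closest pair being 1302 and 1309, and groups apart in this direction were found for 6.14% of all genes compared. Stat5b differed by 0.13 on the log2 scale (standard error 0.06, 95% interval from -0.02 to 0.28) with an adjusted p of 0.598 from limma.

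STAT5A and STAT5B are closely related proteins with overlapping targets. Of the stretches of 50 bases in the transcripts of Stat5b, 11.0% occur in Stat5a too, and 8.52% of those of Stat5a occur in Stat5b or Stat3, so that reads there may be counted for either or neither. There were 1.43, 1.39 and 1.23 reads of Stat5a for each read of Stat5b in control and 1.29, 1.16 and 1.04 in AKO, and these ratios overlapped between the groups. Stat3 had 2533, 2525 and 2736 normalized counts in control and 2756, 2687 and 2452 in AKO. Those of Stat3 overlapped as well, with a log2 difference of 0.02 (standard error 0.07, 95% interval from -0.14 to 0.18) that was not called (adjusted p = 0.968 from limma). The intervals of the 3 STAT genes thus lay within 0.29 of 0 on the log2 scale.

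Of the receptors, Ghr, the growth hormone receptor gene, lies on chromosome 15 from 3317760 to 3583492. Its level was 15382, 13509 and 15650 normalized counts in control and 16214, 13362 and 15488 in AKO. The groups overlapped throughout, and the mean was 14847 ± 1166 in control and 15021 ± 1482 in AKO (SD, n = 3 each). Ghr differed by 0.02 on the log2 scale, with a standard error of 0.10 and a 95% interval from -0.21 to 0.24 (adjusted p = 0.982 from limma). An AKO level between 0.865 and 1.18 times that of control is thus inside the interval.

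Lepr, the leptin receptor gene, lies on chromosome 4 from 101717404 to 101815352 and was the least abundant of the 10. It was at 59.2, 23.7 and 37.6 normalized counts in control and at 60.5, 87.9 and 43.4 in AKO. The groups overlapped, and AKO replicate 2 was the highest sample. The means were 40.2 ± 17.9 (SD, n = 3) and 63.9 ± 22.4 (SD, n = 3). The log2 fold change of 0.69 (standard error 0.37, 95% interval from -0.16 to 1.55) was not called (adjusted p = 0.623 from limma). Without control replicate 2 the log2 fold change of Lepr was 0.37, and without control replicate 1 it was 1.02. Leptin itself (Lep), the ligand that adipocytes secrete, had 7409, 3822 and 6888 normalized counts in control and 8702, 6601 and 7196 in AKO, which is 0.36 higher on the log2 scale (standard error 0.24) and was not called (adjusted p = 0.706 from limma). Control replicate 2 was thus the lowest sample for Lep as for Lepr.

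Prlr, the prolactin receptor gene, had 366, 144 and 495 normalized counts in control and 278, 718 and 383 in AKO. The lowest sample, control replicate 2, and the highest, AKO replicate 2, differed more than the groups did, and the log2 fold change of 0.51 (standard error 0.48) was not called (adjusted p = 0.814 from limma). Mammary epithelium is tissue that the inguinal depot of female mice can contain and that is known to express Prlr. Its markers, when summed, had the same lowest and highest samples. The summed level of the 6 such markers that were listed, of 8 searched, was 374, 9.68 and 804 in control and 95.1, 1213 and 403 in AKO. Epcam, Krt5, Krt8 and Krt14 were listed at 0 in control replicate 2, and the milk protein genes Csn2 and Wap were not among the listed genes. Markers of B and T lymphocytes were highest in AKO replicate 2 and next in control replicate 1, at summed levels of 1331 and 919 against 131 to 196 in the other 4 samples, and Lepr was highest in AKO replicate 2 as well. The part of these cells in the levels of Prlr and Lepr was not tested.

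**Figure D3:**
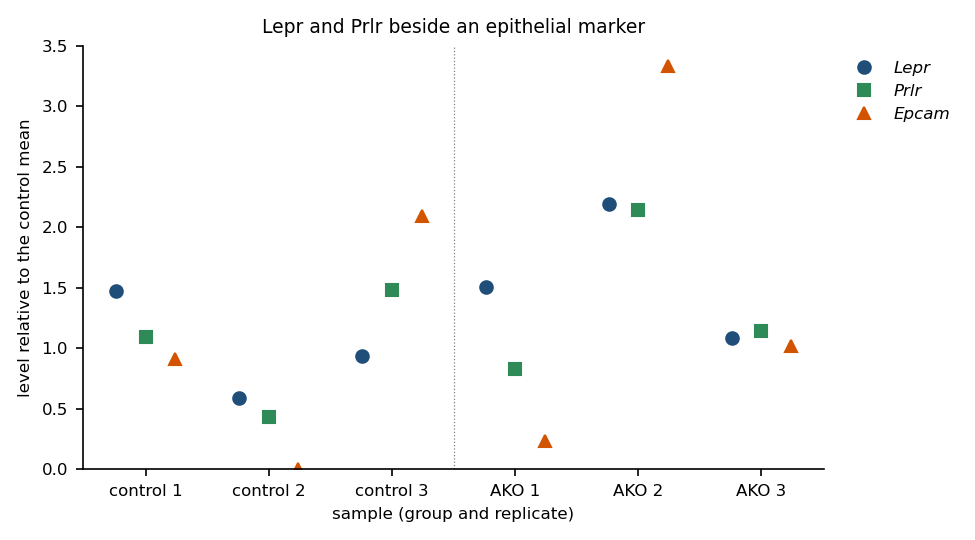
Levels of Lepr, Prlr and the epithelial marker Epcam in each sample (horizontal axis), divided by the mean of the 3 control samples of the same gene (vertical axis, from 0). In AKO replicate 2, Lepr and Prlr are at 2.19 and 2.14 of their control mean, and Epcam is at 3.34, while in control replicate 2 Epcam is at 0.

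Per kb of the principal annotated transcript, Ghr was the most abundant of the 10 genes in control iWAT, at 3556 ± 279 normalized counts per kb (SD, n = 3). Stat3 followed at 575 ± 26.4 and Stat5a at 441 ± 44.7 (SD, n = 3 each). Bcl6, Pim1 and Cish came next with control means of 293, 269 and 268 per kb, and their control samples overlapped with each other. Those of Bcl6 also overlapped with Stat5a. Those of Bcl6, Pim1 and Cish all overlapped with Stat5b, which had a mean of 244 per kb. Below them by mean lay Socs2 at 165 ± 35.7, Socs3 at 66.3 ± 2.97 and Lepr at 11.8 ± 5.25 per kb (SD, n = 3 each). Each was apart from its neighbor in this order, but the control samples of Socs2 overlapped with those of Cish and Bcl6. In AKO iWAT, Cish stood at 71.0 ± 3.38 per kb (SD, n = 3), within the range of Socs3, which ran from 58.2 to 77.5 per kb.

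**Figure D4:**
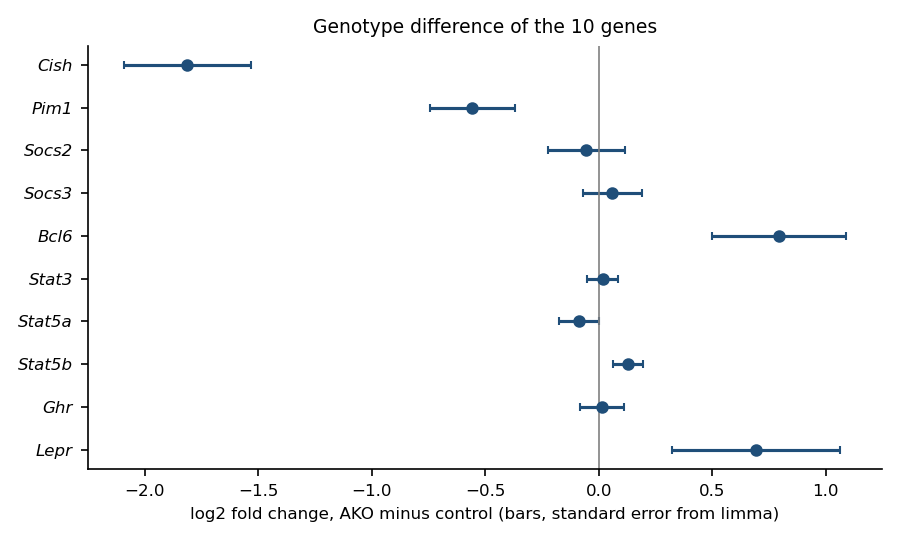
Log2 fold change of each of the 10 genes, AKO minus control (horizontal axis), with bars for the standard error from limma. Cish (-1.81) and Pim1 (-0.56) lie below 0, Bcl6 (0.79) and Lepr (0.69) lie above 0 without passing the adjusted threshold, and the other 6 lie between -0.09 and 0.13.

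Of the 8 genes beside Cish and Pim1, limma called 0 lower and 0 higher at an adjusted p under 0.05, and 1 of them, Bcl6, had a p under 0.05 before adjustment. DESeq2 on the recovered reads also called 0 of the 8. The background was 0.0144% of genes called by limma (2 of 13855, with 0.00722% lower and 0.00722% higher) and 0.998% by DESeq2 (149 of 14923). The median log2 fold change of the 8 was 0.04, against 0.01 for all genes compared.

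Other genes of the pathway were read from lists that were also drawn up with earlier results of these data known. Of 86 named genes, 81 were listed and 77 were compared, of which limma called 0, while 6 had a p under 0.05 before adjustment, where 9.10% of all genes did. DESeq2 called 3 lower and 0 higher, where 0.757% of all genes were called lower and 0.241% higher. The median log2 fold change of the 77 was 0.07. Groups did not overlap for 8 of the 77 with AKO lower and for 2 with AKO higher. Among all genes compared these shares were 8.31% and 6.14%.

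Over 9 other STAT5 targets the median log2 fold change was 0.09, with 3 below 0 and 6 above. Pdk4, a brake on glucose oxidation, had 5438, 8743 and 4960 normalized counts in control and 2587, 2996 and 3031 in AKO, all AKO samples below all controls. On the log2 scale Pdk4 differed by -1.11 with a standard error of 0.19, and DESeq2 called it (adjusted p = 0.0070) while limma did not (adjusted p = 0.205). Igf1, the classical growth hormone and STAT5 target, had 4953, 3726 and 4910 normalized counts in control and 4911, 3470 and 4406 in AKO. These overlapped, and Igf1 was not called (log2 difference -0.09 with a standard error of 0.15, adjusted p = 0.910 from limma). The cell cycle gene Ccnd2 had a log2 fold change of 0.12 (adjusted p = 0.709 from limma), and the remaining targets, Socs1, Pim2, Bcl2l1, Ccnd1, Myc and Il2ra, lay between -0.10 and 0.21.

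Over 11 other STAT3 targets the median log2 fold change was 0.07, with 3 below 0 and 8 above. Cebpb, a transcription factor of adipocyte differentiation, had 1741, 2239 and 1778 normalized counts in control and 1077, 1193 and 1656 in AKO. On the log2 scale Cebpb differed by -0.57 with a standard error of 0.17, and it too was called by DESeq2 (adjusted p = 0.0354) and not by limma (adjusted p = 0.414). The survival gene Mcl1 (0.10) and the hypoxia response gene Hif1a (0.01) were among the most abundant of these targets. They were not called (adjusted p = 0.745 and 0.989 from limma). Bcl3 (-0.26) and Lcn2 (0.52) were the farthest from 0 after Cebpb in their directions.

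In the rest of the PIM and SOCS families, Pim3, the most abundant of the 3 kinases in reads, had 3164, 3633 and 2474 normalized counts in control and 2195, 2905 and 2350 in AKO. The groups of Pim3 overlapped, and the log2 difference of -0.31 with a standard error of 0.15 was not called (adjusted p = 0.596 from limma). The other 6 genes, Pim2, Socs1, Socs4, Socs5, Socs6 and Socs7, lay between 0.02 and 0.20. Of the 8 remaining STAT and Janus kinase genes, the log2 fold changes lay between -0.16 and 0.17 with a median of 0.06. Jak2, the kinase of the growth hormone, prolactin and leptin receptors, had 898, 632 and 698 normalized counts in control and 835, 839 and 751 in AKO, a log2 fold change of 0.14 (adjusted p = 0.814 from limma). Among the most abundant of these genes in reads were Jak1 (0.12) and Stat6 (0.05), neither of which was called.

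Of the other cytokine receptors, 20 were compared, with a median log2 fold change of 0.09. Cntfr, the receptor subunit for ciliary neurotrophic factor, had 732, 634 and 671 normalized counts in control and 528, 402 and 481 in AKO, all AKO samples below all controls. On the log2 scale Cntfr differed by -0.53 with a standard error of 0.11, called by DESeq2 (adjusted p = 0.0111) and not by limma (adjusted p = 0.278). Il6st, the signaling subunit that the interleukin 6 family shares, had a log2 fold change of 0.05 (adjusted p = 0.886 from limma) and Lifr, the leukemia inhibitory factor receptor gene, of 0.12 (adjusted p = 0.650 from limma). Il15ra, a receptor gene for interleukin 15, was also apart between groups, at 1464, 1459 and 1381 normalized counts in control and 1218, 1216 and 1290 in AKO (log2 fold change -0.21, adjusted p = 0.414 from limma). Erbb4, the NRG4 receptor gene, had at most 3.23 normalized counts in any sample and was not compared.

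Of 14 ligand genes, 10 were listed and 7 had enough reads. Growth hormone, prolactin and interleukin 6 (Gh, Prl and Il6) were not among the listed genes, so their transcripts in this tissue were not analysed here. The 7 had a median log2 fold change of 0.01. Il15, a cytokine of lymphocyte survival, was lower in all AKO samples than in all controls, as were 8.31% of all genes compared. It was not called (log2 fold change -0.25, adjusted p = 0.569 from limma). Ctf1, the next most abundant after Lep and Il15, had a log2 fold change of -0.01. Among 11 phosphatases and other inhibitors, the median was 0.03 and the most abundant were Ptpn11 (-0.07), Sh2b3 (0.03) and Ptpn1 (0.06), none of which was called.

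**Figure D5:**
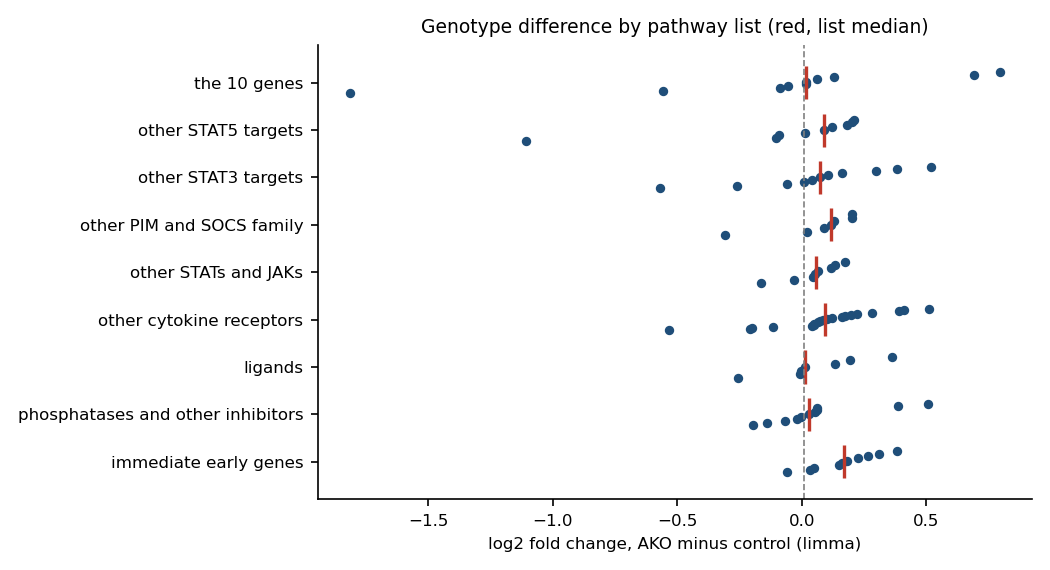
Log2 fold changes, AKO minus control (horizontal axis), of the 10 genes and of the pathway lists (rows), where each point is a gene, red lines are list medians and the dashed line is the median of all genes compared (0.01). List medians lie between 0.01 and 0.17, and the points farthest below 0 are Cish (-1.81), Pdk4 (-1.11), Cebpb (-0.57), Pim1 (-0.56) and Cntfr (-0.53).

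Immediate early genes, which respond within minutes to stress or handling, were read because Pim1, Socs3 and Bcl6 can respond quickly too. Over 10 such genes the median log2 fold change was 0.17, with 9 above 0, and none was called by limma or DESeq2. The most abundant, Zfp36, Dusp1 and Jun, had log2 fold changes of 0.05, 0.26 and 0.18, and the highest Dusp1 sample was AKO replicate 3.

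The tissue label was borne out by the adipocyte markers Adipoq, Plin1, Fabp4, Cidec, Lipe, Pnpla2 and Lep, which were present in every sample. Their summed level ran from 432213 to 457655 in control and from 381136 to 412614 in AKO. Depth was from 17570335 to 18373707 reads per sample on the genes of the table. Nrg4 had 3128, 3102 and 3092 normalized counts in control and 2577, 2627 and 2691 in AKO. Every AKO sample was below every control, but most Nrg4 reads were still present in AKO. By qPCR, the study found Nrg4 transcripts nearly absent from iWAT and brown fat of AKO mice. Reads were not split by exon here, and other genes overlap 8.97% of the exonic bases of Nrg4. The read counts of Nrg4 therefore check the labels only in part.

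Of the 8 marker lists, only the beige and adipocyte lists had summed levels that did not overlap between the groups. The summed level of 7 beige adipocyte markers was 28254, 39747 and 27631 in control and 11496, 11372 and 14847 in AKO, and for 6 of the 7 no AKO sample reached the lowest control, as was the case for 8.31% of all genes compared. Pim1, Pdk4 and the summed beige markers had their highest control value in replicate 2, where Cish had its lowest. Macrophage markers had summed levels of 6091 to 8521 in control and 7605 to 10141 in AKO, with 0 of 5 apart between groups, and adipocyte progenitor markers had 8286 to 11657 and 10953 to 15220, with 3 of 5 apart and AKO higher, against 6.14% of all genes compared. Endothelial markers ran from 16819 to 18233 and from 15411 to 17554. Skeletal muscle markers ran from 136 to 24317 in control and from 18158 to 107244 in AKO, and among the controls Cish was lowest in the sample with the most of them and highest in the middle one. The part of these cells in the levels of Cish, Pim1 and Bcl6 was not tested.

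The genes most like Cish over the 6 samples, by Pearson correlation of log2 values, were Supt5 (r = 0.995), Adrb1 (r = 0.993) and Fam120aos (r = 0.989). Adrb1, the beta-1 adrenergic receptor gene, had 202, 182 and 215 normalized counts in control and 144, 147 and 154 in AKO. It shared with Cish the order of the control samples, as did Supt5 and Fam120aos. Such a shared order largely follows from picking the highest correlations among all genes compared. Those most like Pim1 were Gfm1 (r = 0.999), a mitochondrial translation factor gene, Sept9 (r = 0.996) and Pex3 (r = 0.996). The correlation between Cish and Pim1 was 0.488, and that between Cish and Bcl6 was -0.905. These correlations span the 2 genotypes and share the size factors.

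Some counts can hold reads of other genes. An antisense gene and a pseudogene on the opposite strand overlap 11.5% of the exonic bases of Cish, and an antisense gene overlaps 14.5% of those of Pim1. Whether the counting used strand was not given in the sources used here, and reads of such partners could not be told apart without it. For Socs3, Bcl6 and Ghr, no 50-base stretch occurred in the transcripts of another gene.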

How the data were processed

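RNA-Seq of iWAT was compared between 3 control and 3 AKO samples, grouped by the genotype in their labels. According to the study's methods, alignment was by STAR (GRCm38.p6), gene counting by featureCounts with a GENCODE annotation, and differential expression by DESeq2. The deposited signal is the read count divided by a size factor per sample, called normalized counts here, and it is not divided by gene length. Columns with log2 fold changes from the authors, and their raw and adjusted p-values, were deposited beside these values and were not used. A single read was worth 0.960 to 1.08 normalized counts depending on the sample, and dividing by it gave whole reads (within 0.01) for 100% of values. Replicates were distinct libraries, since the chi-square statistic for any pair within a group was 9.86 to 20.1 times its degrees of freedom.

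Genotypes were compared with limma (version 3.58.1) on log2(normalized count + 1) with a variance trend, for genes with a mean of at least 10, and Benjamini-Hochberg adjusted p under 0.05 was called. Fold changes on this scale understate those of low genes. Recovered reads were also tested with DESeq2 (1.42.0), edgeR (4.0.16) and limma-voom. The fits were tested on simulated data. Intervals are 95% intervals of the limma fit. The members and lists were chosen with earlier results of these data known. The text names the 10 genes, Nrg4, Prlr, Igf1, Erbb4, list genes that were called, the 3 most abundant of each list (1 of them is not reported here) and the 3 genes most like Cish and Pim1. Jak2, Bcl3, Lcn2 and genes named only as the rest of a list were named after their values were seen. Positions and lengths are from GENCODE M21 (GRCm38), and promoter windows are from RefSeq. Same-numbered samples are pools of different mice.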

Additional observations from a re-analysis of the deposited data

How the results depend on the processing

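The log2 fold change of Cish stayed between -2.16 and -1.51 when each sample was left out in turn, and that of Pim1 between -0.68 and -0.34. Over the other alternatives Cish lay between -1.91 and -1.75 and Pim1 between -0.58 and -0.50. The other 8 genes were called under no alternative. The direction of Bcl6 (0.45 without control replicate 3 to 1.10 without control replicate 2), Lepr (0.37 without control replicate 2 to 1.02 without control replicate 1), Stat5a (-0.17 to -0.03 with a sample left out) and Stat5b (0.10 to 0.17 with a sample left out and 0.19 with total reads) held in every fit run. Values near 0 changed sign. Socs2 was at 0.0227 with limma-voom and at 0.0034 with total reads, and ran from -0.19 to 0.11 with a sample left out. With a sample left out, Socs3 ran from -0.0226 to 0.183, Stat3 from -0.0164 to 0.0679 and Ghr from -0.0515 to 0.0971. Over all genes, 2 were called in the limma comparison, 6 with at least 10 normalized counts required in every sample, 149 with DESeq2 (113 lower and 36 higher) and 11 at an adjusted p under 0.1. With a sample left out, 0 to 3 were called. The cause of these differences was not tested. For samples of the same replicate number, the correlations of their deviations were 0.135, -0.351 and 0.240. Not every sample correlated best with its own number. With so few samples these correlations cannot exclude a batch shared by replicate number. With the replicate number as a block, limma called 2 genes, 0 lower and 2 higher, and the log2 fold changes are the same by construction. Fitted with the replicate block, 0 of the 8 genes were called. With 3 pools a group, the interval of Lepr, the gene with the fewest reads, was the widest of the 10.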
